A study of Homo sapiens with 6 samples.

Results

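Desmosomes are spot-like junctions that rivet neighbouring epithelial cells together and anchor their keratin filaments at the membrane. Desmogleins and desmocollins, both cadherins, bind between the cells; the armadillo proteins plakoglobin and plakophilins sit behind them in the plaque; and plakins, above all desmoplakin, tie the plaque to keratin. In simple epithelia such as the lung's, DSG2 and DSC2 are the usual cadherins, whereas DSG3 and DSC3 are best known from the lower layers of skin and other stratified epithelia.

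The RNA of 10 desmosome genes was followed here, each by the row of the deposited table that carries its symbol, which makes 10 of 60504 rows. They are the cadherins DSG2, DSG3, DSC2 and DSC3, the armadillo proteins JUP, PKP2 and PKP3, and the plakins DSP, PPL and EVPL, and each symbol had 1 row. The cells were HCC827, a human lung adenocarcinoma line whose EGFR is mutated. In the 3D group, 3 libraries came from tumoroids grown for 12 to 16 days in gel droplets (Matrigel, a basement membrane extract, of the growth factor reduced kind) seeded with 50000 cells each. Tumoroids were passaged with Dispase, a Rock inhibitor and TrypLE, monolayers with TrypLE. In the 2D group, 3 libraries came from monolayers in uncoated plastic flasks, kept for 4 to 6 days between passages of 1000000 cells. The medium, with serum, was the same, and all 6 libraries come from this single line. Geometry, time in culture, seeding, passaging agents and contact with the gel differ together between the groups and cannot be told apart. Values are TPM, a share of each library's RNA per transcript length, so levels of different genes can be set side by side. The sequencing depth is unknown from TPM. Nothing in the labels says whether replicates were separate cultures, so p-values measure the spread between these libraries, which may be technical.

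The line looked epithelial in both cultures. EPCAM, an epithelial surface protein, had 576 ± 11.2 TPM in 3D and 597 ± 30.5 TPM in 2D (mean ± SD, n = 3 each, as for all such values here). Of 6 epithelial markers, ELF3 was called higher and 5 were not called, with a median log2 fold change of -0.28. KRT8, KRT18 and KRT19 stood at -0.65, -0.77 and -0.51. The 6 summed to 4517 to 8395 TPM in 3D and 6460 to 8894 TPM in 2D. The 3 lung adenocarcinoma markers, none called, summed to 884 to 1009 TPM in 3D and 785 to 803 TPM in 2D. The leukocyte marker PTPRC reached at most 0.25 TPM in any library and the mesenchymal cadherin CDH2 at most 0.03 TPM. VIM, the mesenchymal filament protein vimentin, was an exception, with 40.06, 41.36 and 36.88 TPM in the 3D libraries against 1.62, 3.54 and 7.65 TPM in the 2D libraries (limma log2 fold change 3.11, SE 0.38, adjusted p = 0.00433). Of 8 mesenchymal markers 2 were tested, and both (VIM and COL1A1) were called higher; the summed level of the 8 was 44.1 to 52.5 TPM in 3D and 3.66 to 10.49 TPM in 2D. The 4 endothelial markers summed to 0.91 to 2.35 TPM in 3D and 0.67 to 1.40 TPM in 2D, and the 4 leukocyte markers to 2.22 to 3.52 TPM in 3D and 2.17 to 3.27 TPM in 2D. The 7 squamous and keratinocyte markers summed to 27.0 to 37.4 TPM in 3D and 15.4 to 18.3 TPM in 2D. Of these 7, 2 were tested, TP63 was called higher and KRT10 was not called; the basal keratin KRT14 had 0.43 to 0.85 TPM in 3D and was at 0 in 2D, KRT5 reached at most 0.11 TPM, and LOR was at 0 in all libraries. Their part in the results was not tested. By the test described below, 10.2% of all tested genes were called higher and 2.12% lower. Nothing is read from the counts of these marker lists.

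In 3D, RNA levels of 3 desmosome genes were higher, and the others did not pass the test. The 3 were DSP, which encodes desmoplakin, and the desmocollins DSC2 and DSC3, with mean TPM in 3D at 3.36, 2.01 and 6.22 times the 2D mean. A gene was tested if its mean reached 1 TPM, with limma on log2(TPM + 1), with Benjamini-Hochberg adjustment over all 15042 of them and a threshold of 0.05. Of the 10 members, 9 were tested, 3 were called higher in 3D, 0 lower, and 4 had an unadjusted p under 0.05. Over all tested genes, 10.2% were called higher and 2.12% lower (1536 and 319 genes; 943 and 669 after median-ratio scaling, 869 and 576 after quantile normalization). The groups did not overlap in 4 of the 9 tested members (DSP, DSC2, DSC3 and PKP2), where 36.7% of all tested genes showed such separation. The median log2 fold change of the 9 was 0.33, beside 0.12 over all tested genes, a shift that was -0.03 after median-ratio scaling. Without DSC3, which passed the filter only through its 3D libraries, 2 of 8 were called and their median was 0.14. Nothing is read from the median or from the counts, that of the separated groups included. DSP, DSC2 and DSC3 were called under both scalings. Whether a gene had more RNA per cell or was expressed in more cells cannot be told apart in bulk RNA.

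**Figure D1:**
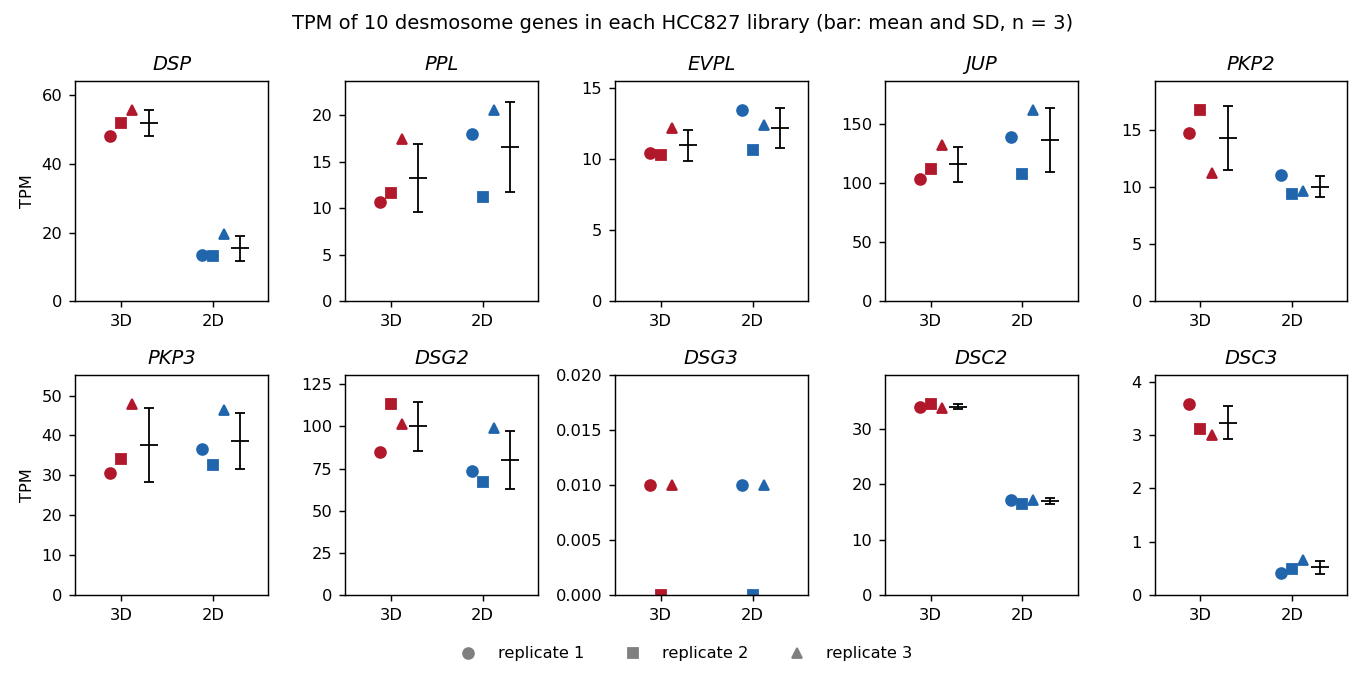
TPM of the 10 desmosome genes (vertical axes, linear from 0, each with its own range) in the 3 libraries of 3D culture and the 3 of 2D culture; marker shapes give the replicate number, and bars give mean and SD except for DSG3, where 2 libraries are at 0. The groups are apart for DSP, DSC2, DSC3 and PKP2 and overlap for the others. Of all tested genes, 36.7% have groups apart.

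Promoter sequence of the called genes is shown first, with that of DSG2, the most abundant cadherin, beside it. RefSeq's table for GRCh38.p14 held starts for 6 of the 10 members. The 250 bases before the start are given 5′ to 3′ on the gene's strand. They lie at chr6:7541421-7541670 on the plus strand for DSP, chr18:31102422-31102671 on the minus strand for DSC2, chr18:31042743-31042992 on the minus strand for DSC3 and chr18:31497927-31498176 on the plus strand for DSG2. For DSC2 another start, deeper inside the gene, is listed and is not shown. Capitals mark the E-box letters CAGGTG, which the SNAI and ZEB repressors of junction genes can bind, and the letters AACCGG of the grainyhead-like factors of epithelia, each on either strand.
DSP: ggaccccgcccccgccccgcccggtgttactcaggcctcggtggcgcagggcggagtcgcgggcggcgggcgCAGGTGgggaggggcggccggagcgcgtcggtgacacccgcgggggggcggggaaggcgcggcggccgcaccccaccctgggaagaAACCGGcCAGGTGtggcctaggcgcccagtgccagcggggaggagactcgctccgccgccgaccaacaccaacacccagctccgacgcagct
DSC2: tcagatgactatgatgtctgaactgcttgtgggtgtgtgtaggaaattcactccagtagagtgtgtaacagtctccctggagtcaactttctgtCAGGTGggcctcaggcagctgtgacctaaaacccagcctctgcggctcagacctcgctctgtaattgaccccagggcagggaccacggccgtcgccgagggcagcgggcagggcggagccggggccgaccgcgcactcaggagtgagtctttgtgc
DSC3: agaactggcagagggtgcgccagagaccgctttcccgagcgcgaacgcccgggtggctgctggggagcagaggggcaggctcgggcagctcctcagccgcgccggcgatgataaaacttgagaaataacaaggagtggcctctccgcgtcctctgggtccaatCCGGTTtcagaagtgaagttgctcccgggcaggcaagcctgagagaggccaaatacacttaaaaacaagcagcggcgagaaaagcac
DSG2: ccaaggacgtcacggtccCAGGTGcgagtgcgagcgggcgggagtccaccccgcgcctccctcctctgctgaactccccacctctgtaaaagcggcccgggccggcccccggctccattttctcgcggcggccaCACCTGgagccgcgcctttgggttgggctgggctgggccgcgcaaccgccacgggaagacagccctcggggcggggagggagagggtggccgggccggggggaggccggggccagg

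The grainyhead letters AACCGG, or CCGGTT on the other strand, stood once in the DSP window and once in the DSC3 window. They began 92 and 87 bases before the start. They were in neither the DSC2 nor the DSG2 window shown, and 5.99% of the 35116 windows of this length in the table hold them. CAGGTG or CACCTG stood 2 times in DSP, 1 time in DSC2, 0 times in DSC3 and 2 times in DSG2, and 17.5% of all windows hold it. In DSP a CAGGTG began 85 bases before the start, next to the grainyhead letters and not overlapping them. The AP-1 letters TGANTCA were in 0 of these 4 windows and in 6.57% of all. The letters are a description of these windows and were not tied to any binding here.

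Among the cadherins, DSC2 gave the tightest difference. DSC2, the desmocollin of simple epithelia, had 33.88, 34.58 and 33.69 TPM in the 3D libraries against 17.25, 16.43 and 17.26 TPM in the 2D libraries. Every 3D library was close to the others, and all lay far above the 2D libraries. The log2 fold change was 0.96 (SE 0.11, 95% interval 0.70 to 1.23, limma adjusted p = 0.00398). The gene spans 31058840 to 31102522 on chromosome 18, on the minus strand (GENCODE 29, GRCh38). An antisense gene, DSCAS, overlaps its first 935 bases and had at most 0.11 TPM in any library.

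DSC3, the desmocollin of stratified epithelia, had 3.59, 3.11 and 3.00 TPM in the 3D libraries against 0.41, 0.49 and 0.66 TPM in the 2D libraries. The groups lay well apart, at levels far below DSC2 in both. The log2 fold change was 1.48 (SE 0.20, limma adjusted p = 0.00661) and understates the change of so low a gene. With a pseudocount of 0.1 in place of 1 it was 2.44, and with 5 it was 0.58. DSC3 passed the filter on low values only through its 3D libraries. With no such filter its adjusted p was 0.0305. It lies beside DSC2 on chromosome 18, at 30990008 to 31042815 on the same strand.

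DSG2, the desmoglein found wherever desmosomes occur, was, after JUP, the most abundant member. It had 85.05, 113.53 and 101.43 TPM in the 3D libraries against 73.79, 67.16 and 99.24 TPM in the 2D libraries. The highest 2D library, replicate 3, overlapped the 3D range. The log2 fold change was 0.33 (SE 0.18, 95% interval -0.10 to 0.76, limma adjusted p = 0.263). DSG3, the desmoglein of basal keratinocytes and the target of antibodies in pemphigus vulgaris, was at most 0.01 TPM in every library and was not tested. The 4 cadherin genes lie in the same cluster on chromosome 18, in which DSG3 (31447795 to 31478702) is the neighbour of DSG2 (31498043 to 31549008). The pair of cadherins that rose in 3D, DSC2 and DSC3, are neighbours in it.

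The mix of cadherin transcripts differed between the cultures. Desmocollins, DSC2 and DSC3 together, made up 30.6%, 24.9% and 26.6% of the cadherin TPM in the 3D libraries and 19.3%, 20.1% and 15.3% in the 2D libraries. The 2 groups of libraries did not overlap in this share. DSG2 made up the remainder, and its TPM was 2.27, 3.01 and 2.76 times that of the desmocollins in the 3D libraries, against 4.18, 3.97 and 5.54 times in the 2D libraries. Within the desmocollins, DSC3 took 8.18% to 9.58% in 3D and 2.32% to 3.68% in 2D. As a per-library difference of log2(TPM + 1), DSC3 minus DSC2 was higher in 3D by 0.52 (exact permutation test, p = 0.1, the smallest that 3 libraries against 3 allow, 0.25 adjusted over 5 pairs of members). With a pseudocount of 0.1 this difference was 1.44, and with 5, which is above every DSC3 value, it turned to -0.25.

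**Figure D2:**
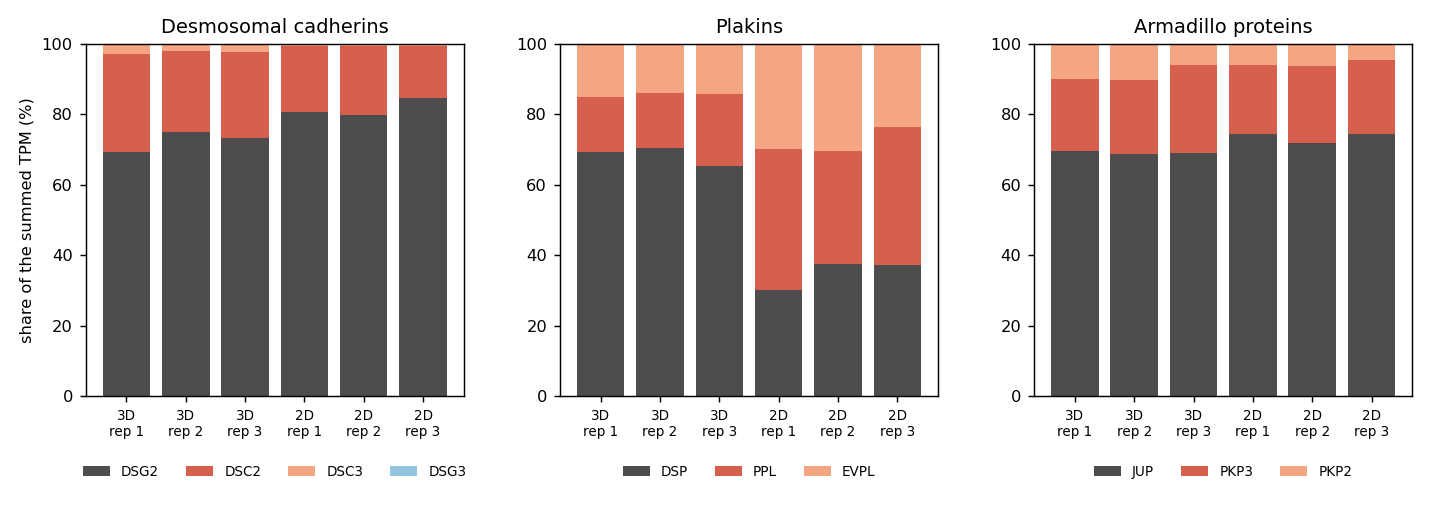
Share of the summed TPM (vertical axes, %) taken by each desmosomal cadherin, plakin and armadillo protein in each of the 6 libraries, 3D libraries left of 2D libraries. DSP takes 65.3% to 70.4% of the plakin TPM in 3D and 30.2% to 37.6% in 2D, and the desmocollin share of the cadherins is larger in every 3D library than in any 2D library.

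The armadillo proteins of the plaque did not pass the test. JUP encodes plakoglobin, which binds the tails of the cadherins and is shared with adherens junctions. It was the most abundant member, with 103.59, 112.37 and 132.40 TPM in the 3D libraries against 138.83, 107.93 and 162.19 TPM in the 2D libraries. The groups overlapped, and the log2 fold change was -0.22 (SE 0.18, 95% interval -0.64 to 0.20, limma adjusted p = 0.438). PKP3, a plakophilin of most epithelia, also overlapped, with 30.65 to 48.00 TPM in 3D and 32.69 to 46.28 TPM in 2D. Its log2 fold change was -0.05 (95% interval -0.52 to 0.43), and its sign turned when 3D replicate 1, 3D replicate 2 or 2D replicate 3 was left out, with values of 0.08, 0.01 and 0.09.

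PKP2, the plakophilin that simple epithelia share with heart muscle, was the member nearest the threshold without passing it. It had 14.76, 16.76 and 11.23 TPM in the 3D libraries against 11.08, 9.35 and 9.65 TPM in the 2D libraries. The groups did not overlap, but 3D replicate 3 lay just above the highest 2D library. The log2 fold change was 0.45 (SE 0.17, 95% interval 0.05 to 0.86, limma adjusted p = 0.125). Without 3D replicate 3 it was 0.60 with an adjusted p of 0.05, just under the threshold, and without both libraries numbered 3 it was 0.58 with an adjusted p of 0.0457. The PKP2 share of the plakophilin TPM was 32.5%, 32.9% and 19.0% in the 3D libraries and 23.2%, 22.2% and 17.3% in the 2D libraries, so the shares overlapped. The PKP3 to PKP2 difference gave an exact permutation p of 0.3 (0.375 adjusted over the pairs).

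Among the plakins, DSP was set apart from PPL and EVPL. Desmoplakin is the obligate link from the plaque to keratin. DSP had 47.99, 52.01 and 55.77 TPM in the 3D libraries against 13.58, 13.13 and 19.66 TPM in the 2D libraries. The lowest 3D library was more than double the highest 2D library. The log2 fold change was 1.70 (SE 0.18, limma adjusted p = 0.00229), above 98.1% of all tested genes. The gene spans 7541575 to 7586717 on chromosome 6, on the plus strand, and no other annotated gene overlaps it.

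Periplakin and envoplakin, encoded by PPL and EVPL, pair with each other and are built into the cornified envelope of keratinocytes. PPL had 10.72, 11.60 and 17.41 TPM in the 3D libraries against 17.95, 11.21 and 20.60 TPM in the 2D libraries. EVPL had 10.40, 10.25 and 12.19 TPM in the 3D libraries against 13.44, 10.62 and 12.39 TPM in the 2D libraries. Both pairs of groups overlapped, and the log2 fold changes were -0.29 (95% interval -0.90 to 0.31) and -0.14 (95% interval -0.48 to 0.21), with limma adjusted p of 0.473 and 0.561. The EVPL to PPL difference gave an exact permutation p of 0.6. CDK3 and TEN1-CDK3 overlap the end of EVPL on the other strand, so its values could hold some of their reads if strand was not used.

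The ratio of JUP to DSP, its partner in the plaque, was lower in every 3D library than in any 2D library. JUP TPM was 2.16, 2.16 and 2.37 times DSP TPM in the 3D libraries, against 10.2, 8.22 and 8.25 times in the 2D libraries. This ratio does not depend on how libraries are scaled to each other, but trends with transcript length and GC content can enter it. With these trends removed, as described below, the log2 fold change was -0.26 for JUP and 1.38 for DSP. On log2(TPM + 1), JUP minus DSP differed by -1.92 between 3D and 2D (exact permutation p = 0.1, 0.25 adjusted over the 5 pairs). DSP took 13.4% to 14.1% of the TPM of all 10 members in 3D and 4.20% to 5.07% in 2D. The summed TPM of the 10 members overlapped between the cultures, with 341, 388 and 415 in the 3D libraries and 323, 269 and 388 in the 2D libraries.

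**Figure D3:**
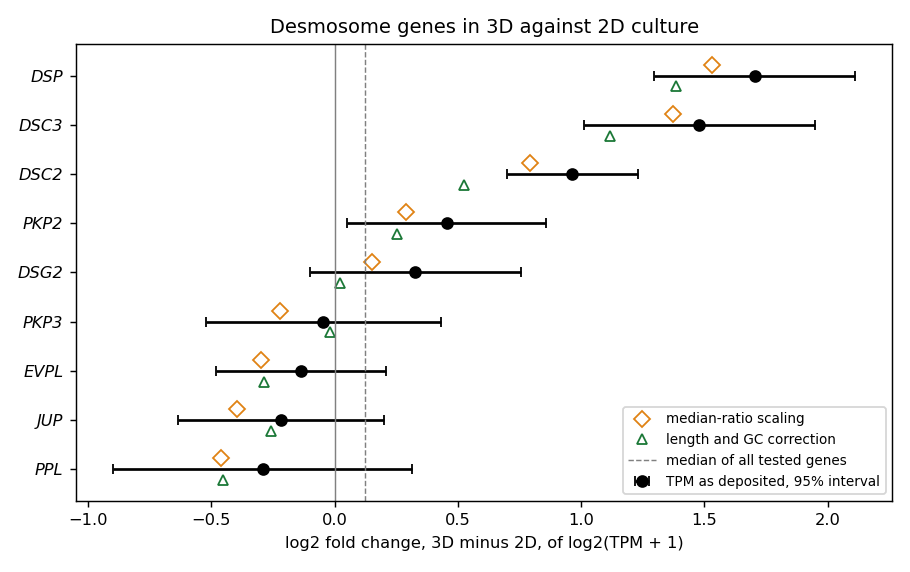
Log2 fold change, 3D minus 2D, on log2(TPM + 1) (horizontal axis) of the 9 tested desmosome genes, with 95% intervals from limma as black bars, the value after median-ratio scaling as diamonds and after length and GC trends were removed as triangles; the dashed line is the median of all tested genes at 0.12. DSP, DSC3 and DSC2 lie above 0 in each of the 3, and DSC2 is at 0.52 after the correction.

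Members differed in the GC content of their transcripts. The 5 members with positive log2 fold changes had a GC content between 38.9% for DSC2 and 47.9% for DSP in their longest annotated transcript, and the 4 with negative values had 59.5% for PPL to 66.7% for PKP3. Of the 5, DSG2 and PKP2 did not pass the test, and DSP and PKP2 lay in the middle of 5 equal bins of GC content. The same order was present across the table. The median log2 fold change was 0.26 in the lowest of these bins and -0.02 in the highest, and it was 0.28 in the bin of the longest transcripts and -0.05 in that of the shortest. PPL and EVPL, with negative values, are in the bin of the longest transcripts, as are DSP, DSG2, DSC2 and DSC3. Whether length or GC content shaped the values of the members was not tested. After the trends with length and GC content were removed from each library, an alternative chosen after seeing the data, DSP stood at 1.38 (limma adjusted p = 0.00548), DSC3 at 1.12 (adjusted p = 0.0156) and DSC2 at 0.52 (adjusted p = 0.0323). DSG2 then stood at 0.02. All 3 calls were kept, with the value of DSC2 lower by a factor of over 1.5.

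**Figure D4:**
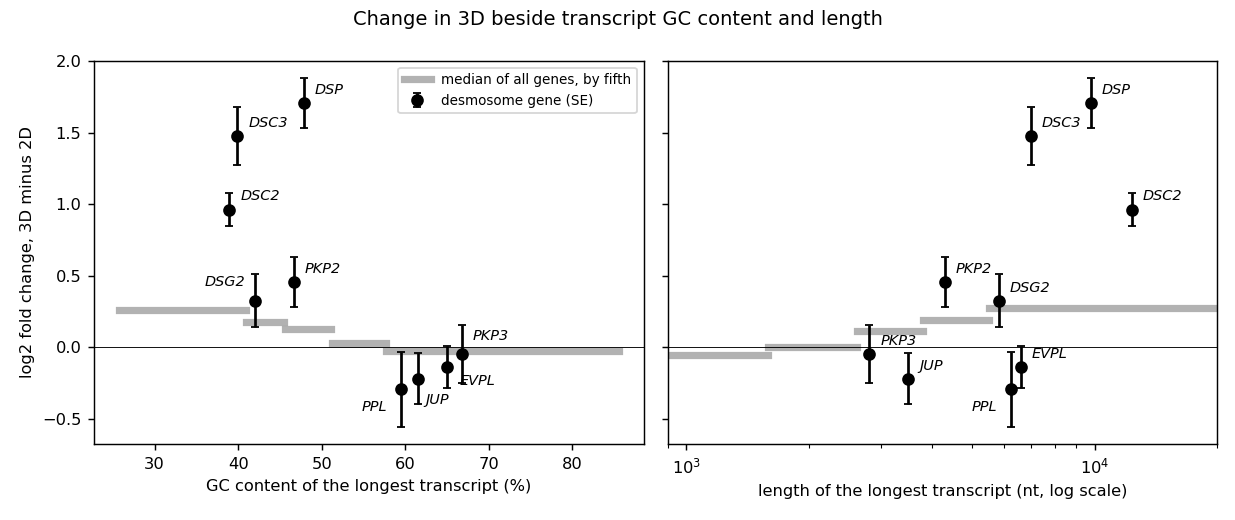
Log2 fold change, 3D minus 2D, of the 9 tested desmosome genes (points, with SE) against the GC content and the length of their longest transcript (left and right, the right axis logarithmic and not covering the shortest and longest transcripts of the table), with the median of all tested genes in each of 5 equal bins as grey bars. DSP, DSC3 and DSC2 lie well above the grey bars of their own bin, while PPL, JUP, EVPL and PKP3 lie at the GC-rich end near or below 0.

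Of 6 other desmosome genes, PERP was abundant and the other 5 were not. DSG1, DSG4, DSC1, PKP1 and CDSN, all best known from skin, stayed under 1 TPM in every library and were not tested. PERP, a membrane protein of desmosomes, was the only tested gene of that list, with 134 ± 16.3 TPM in 3D and 97.9 ± 19.6 TPM in 2D (log2 fold change 0.46, limma adjusted p = 0.134). Of 16 adherens junction genes, the neighbouring actin-linked junction, 2 were called higher, 0 lower and 14 not called, with a median of 0.11. Over all tested genes 10.2% were called higher and 2.12% lower, with a median of 0.12. Nothing is read from the counts of this list or of the lists below. NECTIN4, a nectin adhesion molecule, had 14.9 ± 2.28 TPM in 3D and 4.76 ± 1.16 TPM in 2D (log2 fold change 1.47, adjusted p = 0.00641), and NECTIN1 had 6.04 ± 0.780 TPM in 3D and 2.78 ± 0.479 TPM in 2D. E-cadherin, encoded by CDH1, had 203 ± 27.2 TPM in 3D and 185 ± 33.5 TPM in 2D (log2 fold change 0.14, adjusted p = 0.614, and -0.04 with median-ratio scaling). Of 9 hemidesmosome genes, which fix cells to the basement membrane, 2 were called higher (LAMB3 and DST), 0 lower and 7 not called. DST encodes dystonin, a plakin of the same family as desmoplakin, and had 64.4 ± 13.1 TPM in 3D and 36.5 ± 6.49 TPM in 2D.

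Keratins, which desmoplakin anchors, differed among themselves. Of 6 keratins of simple epithelia 0 were called higher, 1 lower and 5 not called, with a median log2 fold change of -0.58. The member called lower was KRT7, with 698 ± 172 TPM in 3D and 1201 ± 31.4 TPM in 2D. KRT18, the partner of KRT7 and KRT8 in filaments, had 890, 813 and 1515 TPM in the 3D libraries against 1693, 1614 and 1977 TPM in the 2D libraries. All 3D libraries were below the 2D libraries, though the gene did not pass the test (log2 fold change -0.77, limma adjusted p = 0.0794); it was called lower with the replicate block, and when 3D replicate 3 or both libraries numbered 3 were left out. In both cultures, replicate 3 was the highest of its group for KRT8, KRT18 and KRT19. KRT20, an intestinal keratin, had the only positive log2 fold change of the 6, 2.09, but its libraries were scattered, with 453, 200.3 and 245 TPM in 3D against 286, 139 and 6.23 TPM in 2D (limma adjusted p = 0.276).

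Of 7 tested keratins of stratified epithelia, 4 were called higher in 3D (KRT17, KRT23, KRT16 and KRT6A), 0 lower and 3 not called, all 4 at 2.75 to 3.73 TPM in 3D and 0.0633 to 0.463 TPM in 2D on average. Reads of KRT16, KRT17 and KRT6A may be divided with near-identical copies, so these values are uncertain. Of 9 tested genes of the cornified envelope 2 were called higher (SPRR2D and SPRR3), 0 lower and 7 not called, while its precursor IVL was at most 0.60 TPM. SCEL of that list had a mean of 58.3 TPM in 3D and 149 TPM in 2D, and KRT4 of the stratified keratins 7.76 TPM in 3D and 34.3 TPM in 2D, and neither was called. The 4 called keratins, SPRR2D and SPRR3, like DSC3, passed the filter only through their 3D libraries, so their counts support nothing on the lists.

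**Figure D5:**
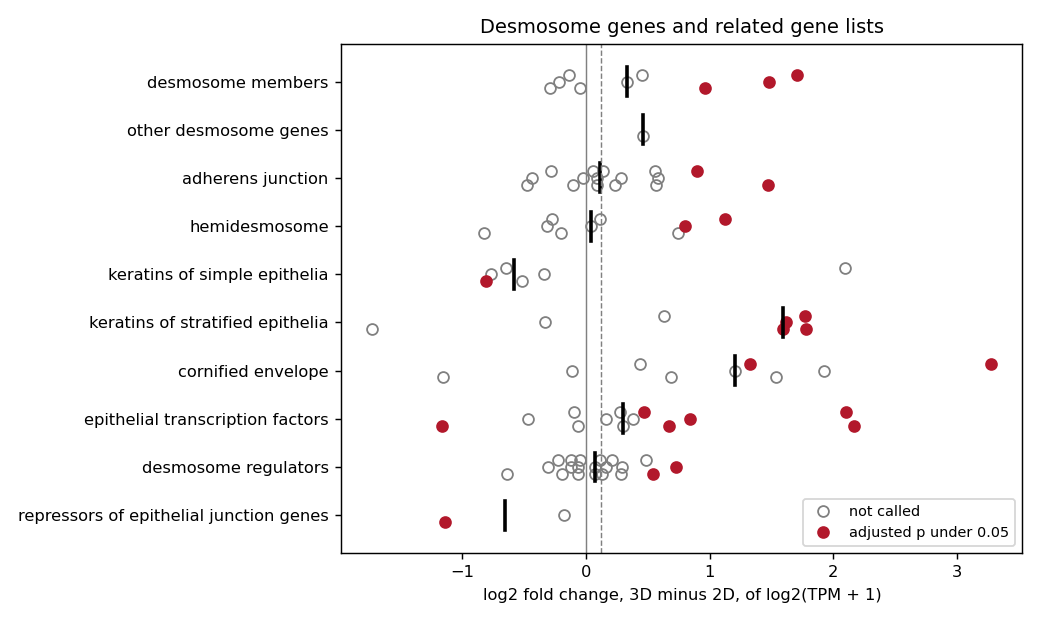
Log2 fold change, 3D minus 2D, on log2(TPM + 1) (horizontal axis) of each tested gene in the desmosome list and 9 related lists (rows), filled where the adjusted p is under 0.05; short black bars are list medians, and the dashed line is the median of all tested genes. Desmosome genes range from -0.29 to 1.70, and the keratins of simple epithelia lie mostly below 0.

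Regulators of junction genes moved in both directions. Of 13 tested epithelial transcription factors 5 were called higher, 1 lower and 7 not called. TP63, the master regulator of stratified epithelia, had 8.47 ± 3.25 TPM in 3D and 1.13 ± 0.0436 TPM in 2D (log2 fold change 2.10, limma adjusted p = 0.00415). KLF4, a factor of epithelial differentiation, had 107 ± 39.4 TPM in 3D and 22.4 ± 5.54 TPM in 2D (log2 fold change 2.17, adjusted p = 0.0066), and ELF3 was also higher. OVOL2, a guardian of the epithelial state, was lower, with 5.89 ± 0.889 TPM in 3D and 14.5 ± 2.37 TPM in 2D (log2 fold change -1.17, adjusted p = 0.00992). GRHL1 and GRHL2, grainyhead-like factors, were not called, with log2 fold changes of 0.38 and 0.30 (adjusted p = 0.123 and 0.161).

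Of 2 tested repressors of junction genes, SNAI1, which binds E-boxes, was called lower, with 8.68 ± 2.35 TPM in 3D and 20.2 ± 4.09 TPM in 2D (log2 fold change -1.14, limma adjusted p = 0.0202), and TWIST2 was not called. ZEB1 was at most 0.35 TPM. Of 20 regulators of desmosome assembly and shedding, 2 were called higher, 0 lower and 18 not called. These were ADAM17 and ADAM10, proteases that shed cadherin ectodomains, with log2 fold changes of 0.73 and 0.54. Among the genes named from these lists, NECTIN4, KLF4, OVOL2 and VIM kept their calls in all 18 alternatives, and TP63 in the 17 in which it was tested. Each of the other called ones lost its call without 1 or more of 3D replicates 1 and 2 and 2D replicates 1 and 2. DST, ADAM10 and ADAM17 lost it under median-ratio scaling too, DST, ADAM10, ADAM17, KRT23 and SPRR3 under quantile normalization, and DST, ADAM10, ADAM17 and KRT23 with the length and GC correction. The highest limma adjusted p over the alternatives was 0.255 for DST, whose log2 fold change was then 0.33, 0.533 for ADAM10 and 0.163 for ADAM17.

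By Euclidean distance between centred log2(TPM + 1) profiles over the 6 libraries, the 3 genes nearest to DSP among 8066 protein-coding genes averaging 10 TPM or more were KLF10, RNF19A and P4HA1. KLF10, a transcription factor, had 186.69, 181.10 and 196.27 TPM in the 3D libraries against 44.28, 47.45 and 61.53 TPM in the 2D libraries, at a distance of 0.27. The 3 nearest to JUP were NACC1, PIP4K2B and NUP210, at distances of 0.09 to 0.13. Among the members themselves, DSP and DSC3 were each other's nearest, and PPL, EVPL and PKP3 were all nearest to JUP. The place of DSC3 rests on the pseudocount of 1, since its log2 fold change was 2.44 with 0.1 and 0.58 with 5. For DSP the values were 1.76 and 1.49. All these distances are descriptions over 6 libraries.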

How the data were processed

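RNA of HCC827 cells was measured by poly(A) RNA-seq in 3 libraries of 3D and 3 of 2D culture, with a directional kit and single-end reads of 75 nt, per the labels' protocols. The deposited file is a single TPM table of 60504 genes made by the authors, with columns summing to 1000000 apart from rounding to 2 decimals. Tools named in the submitters' processing notes are RSEM 1.3.1, STAR 2.7.0d and cutadapt 2.3, with the build hg38. Roles, annotation, strand setting and filters were not given in the sources used here. TPM keeps no depth, so no counting interval is given, and it is a share, so a rise of some genes lowers others.

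Groups came from the sample titles. For genes whose mean reached 1 TPM, log2(TPM + 1) was fitted as 3D minus 2D in limma 3.58.1 (eBayes with a trend, R 4.3.3). Two-sided p-values were adjusted by Benjamini and Hochberg's method across every gene fitted. The fit was tested on simulated data with independent errors for each gene and library. These hold no deviation shared by the genes of a library, so the test cannot tell how such deviations affect the calls. Within-library differences of 5 pairs of members were compared with exact permutation tests (scipy 1.17.1). Related lists were described by counts and medians; 5 of their symbols were matched by gene ID. From each list, up to 4 called genes with the largest log2 fold changes were named, or the 2 most abundant where none was called, and the 3 genes nearest in profile to the most abundant and the most changed member. EPCAM, CDH1, CDH2, KRT5, KRT8, KRT10, KRT14, KRT20, LOR, KRT18, KRT19, KRT4, SCEL, PTPRC, IVL, ZEB1, TWIST2, GRHL1 and GRHL2 were named outside this rule, after their values were seen, as were the overlapping genes. DSG1, DSG4, DSC1, PKP1 and CDSN were also named outside the rule. Members, lists and tests were chosen with earlier results of these data known. Coordinates, transcript length and GC content came from GENCODE 29 (14874 of the tested identifiers, 98.9%) and promoters from RefSeq, both on GRCh38. The alternatives were a pseudocount of 0.1 or 5, a filter at 5 TPM or none, scaling by median ratios or quantiles, removal of mitochondrial genes, no trend, the robust option, the replicate block, each library left out, and both libraries numbered 3 left out. A loess correction for length and GC content was added after seeing the data.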

Additional observations from a re-analysis of the deposited data

How the results depend on the processing

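DSP, DSC2 and DSC3 kept their direction and their calls in every alternative in which they were tested, 18 for DSP and DSC2 and 17 for DSC3, with log2 fold changes of 1.38 to 1.88, 0.52 to 1.00 and 0.58 to 2.44 and adjusted p up to 0.0167, 0.0323 and 0.0433. DSG2, JUP, PKP3, PPL and EVPL were called in none of theirs. Leaving out 1 library at a time gave 3 to 4 members called higher and log2 fold changes of 0.34 to 0.60 for PKP2 and -0.23 to 0.09 for PKP3; the fourth call was PKP2, when 3D replicate 3 was absent, and it was also called, at 0.58, with both libraries numbered 3 absent. The DSC3 to DSC2 difference was 1.44 with a pseudocount of 0.1 and -0.25 with 5, which is above every DSC3 value (at most 3.59 TPM). Why the PKP2 call changed was not tested.

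Over all genes, higher and lower calls numbered 729 and 86 with no filter, 943 and 669 with median-ratio scaling, 869 and 576 with quantile normalization, 960 and 525 with the length and GC correction and 2464 and 1356 without both libraries numbered 3, against 1536 and 319. Single libraries left out gave 367 to 1607 and 29 to 563. The counts for the related lists, given next, include genes that passed the filter only through their 3D libraries, and nothing is read from them. Over the 9 related lists, 17 higher and 3 lower calls became 5 and 1 with no filter, 10 higher with the filter at 5 TPM, 26 and 12 without both libraries numbered 3, and 3 to 18 and 1 to 9 with single libraries left out; 5 were lower with the length and GC correction. Uncalled genes changed sign: CDH1 was -0.040 with median-ratio scaling and -0.068 with the length and GC correction, EGFR was -0.041 with that correction, and CD14 was -0.054 with median-ratio scaling, -0.135 with quantile normalization and -0.026 to 0.208 with single libraries left out.

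Same-numbered libraries of the 2 cultures did not deviate together clearly (correlations of 0.101, 0.036 and 0.185 across genes), so the numbers were not taken as pairs. Libraries of unlike number gave -0.168 to 0.127. The 0.185, for the libraries numbered 3, was the highest, and a deviation shared by these was not tested. Replicate 3 was the highest of its group in both cultures for DSP, JUP, PKP3 and PPL, but not for DSG2, DSC2, DSC3, PKP2 or EVPL. With the replicate block, 1479 genes were higher and 395 lower, 3 members were higher, with log2 fold changes as without it, and the related lists had 5 lower calls.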
